A study of Mus musculus with 4 samples.

Results

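H3K27me3 peaks of mouse erythro-myeloid progenitors (EMPs) of the yolk sac were examined at 10 genes of the Notch pathway. They were the ligand genes Dll1, Dll4, Jag1 and Jag2, the receptor genes Notch1, Notch3 and Notch4, and the Hey genes Hey1, Hey2 and Heyl, out of 21911 protein-coding genes. The genes were listed by name, and the peaks that lay in a gene or within 10 kb of it were taken. These numbered 15 of the 10223 peaks called with 500 EMPs and 21 of the 15282 peaks called with 15000 EMPs.

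CUT&RUN, in which a nuclease tethered to an antibody cuts out the chromatin that the antibody binds, was performed on EMPs sorted at E10.5 from C57BL/6 yolk sacs. The cells were gated as lineage-negative, SCA1-negative cells positive for KIT, CD41 and Fc gamma receptors. All 4 libraries carried the same genotype label, which names a floxed Ezh2 allele and Tie2-Cre (a Cre active in endothelium and its blood progeny) and ends with the words wild type, and the study treats the cells as wild type. There was 1 H3K27me3 library and 1 IgG background library at each cell number, so no spread between replicates and no test between cell numbers could be given. Cell number also went with other differences. The 500-EMP libraries had 17 PCR cycles, reads of 76 bp and a peak-calling threshold of 0.01, against 16 cycles, 59 bp and a threshold of 0.05 for 15000 EMPs. The sequencer differed too, and the study's account of its libraries gives fewer reads and a lower alignment rate for 500 EMPs. These cannot be told apart from the cell number. The peak files used here held positions without heights or read counts, and signal tracks were not analysed here. The reads behind a single peak are therefore not given, and a gene without a peak is not shown to lack the mark. A peak also cannot tell a mark in all cells from a mark in some of them.

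Notch signalling passes between touching cells. A Delta-like or Jagged ligand on one cell binds a Notch receptor on its neighbour, the receptor is cut, and its intracellular part enters the nucleus and activates genes together with Rbpj, among them the Hey and Hes repressors. In the embryo the pathway sets arterial identity and is needed for blood stem cells of the aorta. H3K27me3, placed by Polycomb repressive complex 2 with Ezh2 as its catalytic subunit, marks genes held silent, often over CpG-rich gene starts.

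Peaks were found around the starts of ligand and Hey genes, and around the start of none of the 3 receptor genes. A peak within 3 kb of the transcription start site (TSS) was present with 15000 EMPs at 7 of the 10 genes, all 4 ligands and all 3 Hey genes, whereas this was so for 17.0% of all protein-coding genes. With 500 EMPs these were 5 of 10, namely Dll1, Dll4, Jag1, Hey1 and Hey2, beside 9.94% of all genes. When the whole gene with 10 kb on either side was considered, 8 of 10 had a peak with 15000 EMPs (all genes, 25.0%) and 7 of 10 with 500 EMPs (all genes, 15.1%). Notch3 entered by this wider limit, as did Heyl with 500 EMPs. Notch1 and Notch4 had no peak in either library. A peak across the TSS itself was seen at Dll1, Dll4, Jag2 and Heyl with 15000 EMPs, 4 of 10 against 8.64% of all genes, and at Jag1 alone with 500 EMPs, 1 of 10 against 1.41%. The starts counted here are those of GENCODE. RefSeq places the Jag2 start further downstream, where no peak crosses it. Among genes with a peak within 3 kb, the peak crossed the TSS in 4 of these 7 genes with 15000 EMPs (all genes, 50.8%) and in 1 of 5 with 500 EMPs (all genes, 14.1%). The share of all genes covers every protein-coding gene, whatever its function. It is a background and not a test of the pathway. The 10 genes and the other gene lists were chosen with earlier results of these data known. An excess over this share is therefore not an independent finding.

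**Figure D1:**
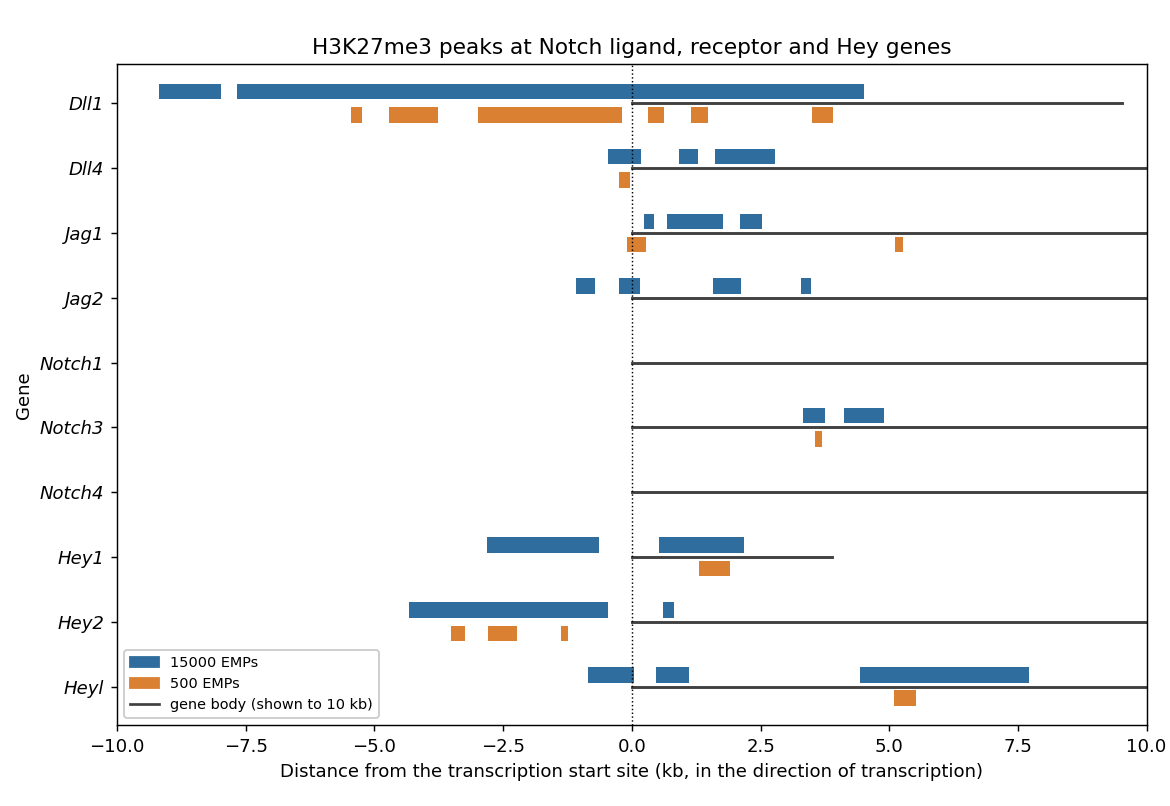
Positions of H3K27me3 peaks at the 10 genes. The horizontal axis is the distance from the TSS in kb along the direction of transcription, each row is 1 gene, boxes above the dark gene line are peaks of the 15000-EMP library and boxes below it are peaks of the 500-EMP library. Dll1 has 1 box of 12182 bp over its start, whereas the rows of Notch1 and Notch4 are empty.

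Among the ligands, Dll1, which is known for somite segmentation and neurogenesis, carried the longest domain. The 15000-EMP library had 1 peak of 12182 bp on chromosome 17, from 15372369 to 15384550, which ran from 7678 bp upstream of the TSS to 4503 bp downstream and overlapped exons 1 to 4 of the 11 exons of the main coding transcript. It was the 106th widest of the 15282 peaks, and 99.3% of the list was narrower. A second peak of 1205 bp lay further upstream, from 15384845 to 15386049. With 500 EMPs the same region was called as 6 separate peaks, which lay entirely in the wide one and summed to 5003 bp. The largest piece measured 2790 bp and ended 195 bp before the TSS, and the next began 319 bp after it, so the start was left uncovered over 513 bp. This TSS is the GENCODE 5′ end, whereas the main coding transcript starts further downstream. RefSeq also has a downstream start. The 300 bases around it, from 15375774 to 15376073, lay wholly under the 15000-EMP peak, with 0 under a 500-EMP peak. In the window of 6001 bp centred on the TSS, peaks covered 3444 bp with 500 EMPs and all 6001 bp with 15000 EMPs. Full coverage of this window was found for 139 protein-coding genes with 15000 EMPs. The long non-coding RNA gene A930024N18Rik overlaps the start of Dll1 on the other strand, and H3K27me3 at these shared bases cannot be assigned to one gene.

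Dll4, the arterial ligand of the endothelium, had a short peak at its start in both libraries. With 500 EMPs it measured 219 bp on chromosome 2, from 119325534 to 119325752, and ended 32 bp before the TSS. With 15000 EMPs it was 643 bp wide, from 119325321 to 119325963, and crossed the TSS into the non-coding part of exon 1. Downstream of it, 2 further peaks of 368 and 1163 bp covered introns and parts of exons 3, 4 and 5 with 15000 EMPs. The authors' table names the non-coding gene Gm14207, which starts on the opposite strand within exon 1 of Dll4, for these 2 peaks and not Dll4. The covered length within 3 kb of the TSS was 219 bp with 500 EMPs and 2174 bp with 15000 EMPs.

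The Jagged ligands had several separate peaks of at most 1094 bp. At Jag1, a ligand of arteries and of many epithelia, the libraries differed in where the start was covered. The 500-EMP library had a peak of 356 bp across the TSS, on chromosome 2 from 137116373 to 137116728. The 15000-EMP library left the TSS uncovered and had 3 peaks downstream of it, of 183, 1094 and 434 bp, the nearest of which began 245 bp after the TSS. Only 27 bp of the 356-bp peak lay under a 15000-EMP peak. The 500-EMP library also had a peak of 146 bp in intron 2, beginning 5122 bp from the TSS, which had no counterpart with 15000 EMPs. Jag2, which acts in limb and palate development, had no peak with 500 EMPs inside the gene or its 10-kb flanks, and the nearest was 29.4 kb away. With 15000 EMPs it had 4 peaks of 205, 546, 415 and 354 bp. The peak of 415 bp, on chromosome 12 from 112929613 to 112930027, crossed the GENCODE TSS. It did not reach the RefSeq start, which lies further downstream. Peaks covered 1711 bp within 3 kb of the Jag1 TSS and 1315 bp around that of Jag2 with 15000 EMPs, against 356 bp and 0 bp with 500 EMPs.

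To show what the marked starts look like, the 250 bases before the start of the 4 ligands are given, 5′ to 3′ along the gene, on GRCm38.p6. The start used is the one furthest upstream in RefSeq or GENCODE vM21. Capitals mark bases under a peak of either library. All 250 bases at Dll1, Dll4 and Jag2 lay under a 15000-EMP peak, of which 116 and 219 at Dll1 and Dll4 and 0 at Jag2 also lay under a 500-EMP peak. At Jag1 the 84 capitals lay under the 500-EMP peak only.
Dll1, chr17:15376933-15377182, minus strand: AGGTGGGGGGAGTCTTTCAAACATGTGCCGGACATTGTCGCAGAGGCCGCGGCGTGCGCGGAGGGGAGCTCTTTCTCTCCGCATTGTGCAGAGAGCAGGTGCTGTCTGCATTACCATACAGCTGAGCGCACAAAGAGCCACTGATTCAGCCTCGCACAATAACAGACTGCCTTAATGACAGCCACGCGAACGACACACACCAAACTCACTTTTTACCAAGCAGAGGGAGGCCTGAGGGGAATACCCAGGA
Dll4, chr2:119325534-119325783, plus strand: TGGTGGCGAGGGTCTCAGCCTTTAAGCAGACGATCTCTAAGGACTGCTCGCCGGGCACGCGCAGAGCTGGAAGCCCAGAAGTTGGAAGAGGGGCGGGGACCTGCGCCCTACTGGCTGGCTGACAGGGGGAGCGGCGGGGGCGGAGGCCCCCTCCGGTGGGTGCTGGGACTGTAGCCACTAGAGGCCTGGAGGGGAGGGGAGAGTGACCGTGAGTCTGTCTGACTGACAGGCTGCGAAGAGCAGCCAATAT
Jag1, chr2:137116645-137116894, minus strand: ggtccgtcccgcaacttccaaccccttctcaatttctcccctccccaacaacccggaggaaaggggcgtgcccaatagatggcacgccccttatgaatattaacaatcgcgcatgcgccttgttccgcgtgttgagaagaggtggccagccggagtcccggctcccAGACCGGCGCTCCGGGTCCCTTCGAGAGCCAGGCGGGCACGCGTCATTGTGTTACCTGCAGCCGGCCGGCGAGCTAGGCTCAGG
Jag2, chr12:112929777-112930026, minus strand: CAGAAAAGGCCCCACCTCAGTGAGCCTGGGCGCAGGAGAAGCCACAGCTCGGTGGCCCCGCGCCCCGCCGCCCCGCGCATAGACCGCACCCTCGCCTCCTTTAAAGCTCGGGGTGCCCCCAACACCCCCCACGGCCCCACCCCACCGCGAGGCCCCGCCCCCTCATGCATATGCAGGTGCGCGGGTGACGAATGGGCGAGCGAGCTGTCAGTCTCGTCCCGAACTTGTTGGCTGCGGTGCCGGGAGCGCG

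The receptor genes had no covered base within 3 kb of the TSS in either library. Notch1, the receptor required for blood stem cells of the aorta, and Notch4, a receptor largely of endothelium, had no peak in either library, flanks of 10 kb included. The nearest peaks to Notch1 lay 252 kb from the gene with 500 EMPs and 230 kb with 15000 EMPs. For Notch4 these distances were 76.8 kb and 39.5 kb. GENCODE begins Notch1 at a minor transcript upstream of the RefSeq start, and neither start had a peak near it. Notch3, a receptor of smooth muscle and pericytes, had peaks only in intron 2 of its 33 exons. With 500 EMPs this was 1 peak of 137 bp, the smallest width in that list, on chromosome 17 from 32163164 to 32163300. With 15000 EMPs a peak of 440 bp from 32163091 to 32163530 contained it, and a second of 780 bp lay from 32161953 to 32162732. The nearer one began 3322 bp after the TSS, just outside the limit of 3 kb, so Notch3 counted as unmarked at its start. The 250 bases before the Notch3 start are given for comparison with the ligands and held no peak in either library.
Notch3, chr17:32166891-32167140, minus strand: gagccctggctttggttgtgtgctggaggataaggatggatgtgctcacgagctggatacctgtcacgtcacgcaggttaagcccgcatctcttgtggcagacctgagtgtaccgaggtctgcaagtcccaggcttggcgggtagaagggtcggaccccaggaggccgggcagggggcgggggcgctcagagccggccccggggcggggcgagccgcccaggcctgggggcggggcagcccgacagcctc

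All 3 Hey genes, which encode the basic helix-loop-helix repressors that Notch activates, were marked with 15000 EMPs, and the widest peak of each was wider than any at Dll4, Jag1 or Jag2. Hey1, an arterial and cardiac gene, had a peak of 2174 bp upstream of the start, on chromosome 3 from 8667902 to 8670075, and a peak of 1649 bp inside the gene, from 8665080 to 8666728, over exons 2 to 4 of 5. With 500 EMPs it had 1 peak of 600 bp, from 8665356 to 8665955, entirely in the second of these. Hey2, known for arterial identity and the ventricular myocardium, had a peak of 3878 bp upstream, on chromosome 10 from 30843258 to 30847135, and a peak of 224 bp in intron 1. The 500-EMP library had 3 peaks at Hey2, of 137, 565 and 287 bp, which all lay in the wide upstream peak and summed to 989 bp. At Heyl, a vascular smooth muscle gene, the start lay under an 895-bp peak of chromosome 4 (123232702 to 123233596). It was followed by one of 639 bp in intron 1 and one of 3283 bp from intron 1 into intron 2, from 123237993 to 123241275. The only Heyl peak with 500 EMPs was 421 bp wide and lay in the last of these, 5094 bp from the TSS.

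At Hey1 and Hey2 the start itself was spared with 15000 EMPs. The uncovered gap over the TSS measured 1173 bp at Hey1, from 646 bp before to 528 bp after it, and 1055 bp at Hey2, from 457 bp before to 599 bp after it. Such a pattern was not particular to these genes. Of the 2622 protein-coding genes with 15000-EMP peaks on both sides of the TSS within 3 kb, 729 (27.8%) had an uncovered TSS. Among the 10 genes examined here, 6 had peaks on both sides and 2 of these had an uncovered TSS. With 500 EMPs the numbers were 797 of 1104 genes (72.2%), among them Dll1, whereas Jag1 was the other of the 2 examined genes with peaks on both sides. The 250 bases before the Hey2 start lie in this gap and are shown for that reason.
Hey2, chr10:30842802-30843051, minus strand: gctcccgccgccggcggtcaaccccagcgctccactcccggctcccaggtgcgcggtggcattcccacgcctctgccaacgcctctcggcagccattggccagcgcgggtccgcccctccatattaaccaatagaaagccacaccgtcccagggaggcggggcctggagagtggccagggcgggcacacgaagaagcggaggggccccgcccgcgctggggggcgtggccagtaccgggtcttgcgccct

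The order of the genes by covered length was then compared. With 15000 EMPs, the length covered within 3 kb of the TSS was 6001 bp at Dll1, 3823 bp at Hey1, 2768 bp at Hey2, 2174 bp at Dll4, 1711 bp at Jag1, 1534 bp at Heyl, 1315 bp at Jag2 and 0 bp at the 3 receptors. Dll1 came first with 500 EMPs as well, at 3444 bp, followed by Hey2 (702 bp), Hey1 (600 bp), Jag1 (356 bp) and Dll4 (219 bp), with 0 bp at the other 5 genes. With 1 library per cell number, neighbours in either order cannot be said to differ. The ratio of covered length, 15000 EMPs over 500 EMPs, was 3.94 at Hey2, 4.81 at Jag1, 6.37 at Hey1 and 9.93 at Dll4. At Dll1 it was 1.74, the highest value possible there, since the window was full with 15000 EMPs. Over the gene and 10 kb on either side Dll1 had 5003 bp with 500 EMPs and 13387 bp with 15000 EMPs. The median over the 10 genes was 1622.5 bp with 15000 EMPs and 110 bp with 500 EMPs, and the median over all protein-coding genes was 0 bp in both. Among the 3726 genes with any peak in this window with 15000 EMPs, the median was 2744.5 bp, and Dll1, Hey1 and Hey2 lay above it. Of the 2177 such genes with 500 EMPs the median was 789 bp, and Dll1 alone of the 5 lay above it.

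**Figure D2:**
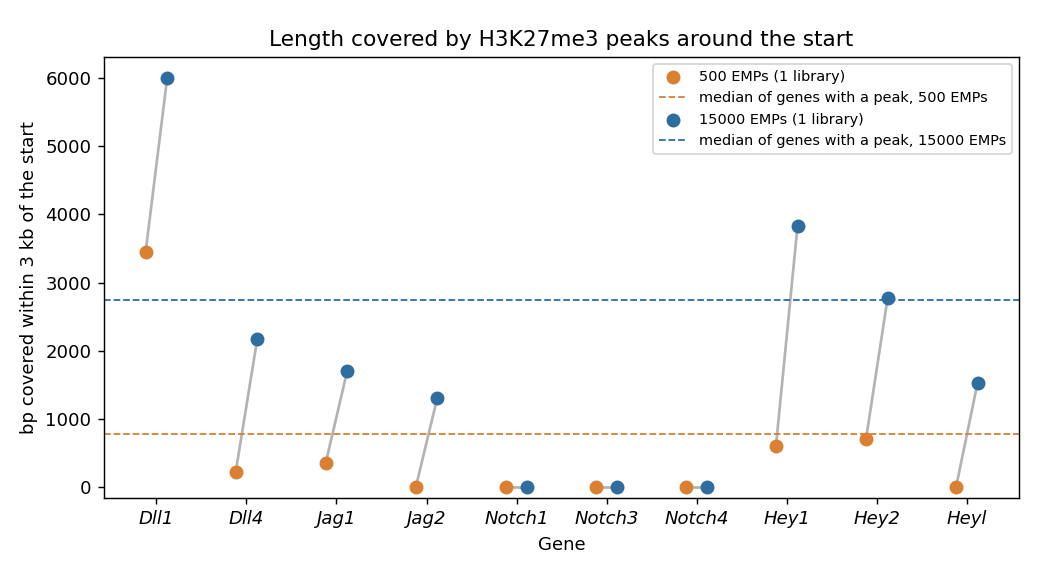
Length in bp covered by H3K27me3 peaks within 3 kb of the TSS of each gene, with 1 point per library joined by a line. Dashed lines mark the median of all protein-coding genes with a peak in this window, 789 bp with 500 EMPs and 2744.5 bp with 15000 EMPs, and the 3 receptor genes lie at 0 in both libraries.

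The side of the start that was covered differed from gene to gene. With 15000 EMPs, Hey2 had 2544 bp covered in the 3 kb upstream and 224 bp in the 3 kb downstream, whereas Jag1 had 0 bp upstream and 1711 bp downstream. Dll4 also leaned downstream, with 463 bp and 1710 bp. Jag2 (605 bp and 709 bp), Heyl (854 bp and 679 bp) and Hey1 (2174 bp and 1649 bp) were covered on both sides. Across all genes with a peak within 3 kb the medians were 1055.5 bp upstream and 1815 bp downstream. All 15 and all 21 peaks lay near the start. They reached at most 9177 bp upstream and 7719 bp downstream with 15000 EMPs, and 5448 bp and 5514 bp with 500 EMPs, although the genes were 3.90 to 58.8 kb long. None lay past the 3′ end. For protein-coding genes at large, 63.3% of pairs of a gene and a peak in its window with 15000 EMPs, and 68.8% with 500 EMPs, lay within 10 kb of the TSS, and 16.3% and 19.0% lay past the 3′ end. The outermost peak inside the 10-kb limit ran from 7973 to 9177 bp upstream of Dll1, and the nearest one outside it was 13.7 kb from the same gene. The limit of 3 kb around the TSS was closer, since peaks that began 3234 bp from the TSS at Hey2, 3278 bp at Jag2 and 3322 bp at Notch3 lay just outside it.

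Positions were compared between the libraries. Of the 15 peaks with 500 EMPs at these genes, 14 shared at least 1 bp with a 15000-EMP peak (93.3%, 95% Wilson interval 70.2 to 98.8%), and the exception was the peak of 146 bp in Jag1. In the other direction 7 of 21 overlapped (33.3%, 95% Wilson interval 17.2 to 54.6%). The shares over the whole lists were 91.2% and 32.2%, both inside these intervals, which cover counting error only and take neighbouring peaks as independent. The libraries shared 7396 bp, which was 94.0% of the 7871 bp covered with 500 EMPs and 22.6% of the 32754 bp covered with 15000 EMPs. Gene by gene, the 15000-EMP peaks that lacked a counterpart included all 4 at Jag2, the upstream peak of Hey1 and the start peak of Heyl. Median peak width at the 10 genes was 339 bp with 500 EMPs (all peaks, 363 bp) and 643 bp with 15000 EMPs (all peaks, 770 bp). Apart from Dll1, the widest were 3878 bp at Hey2 and 3283 bp at Heyl, and 90.8% and 87.6% of the list was narrower.

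**Figure D3:**
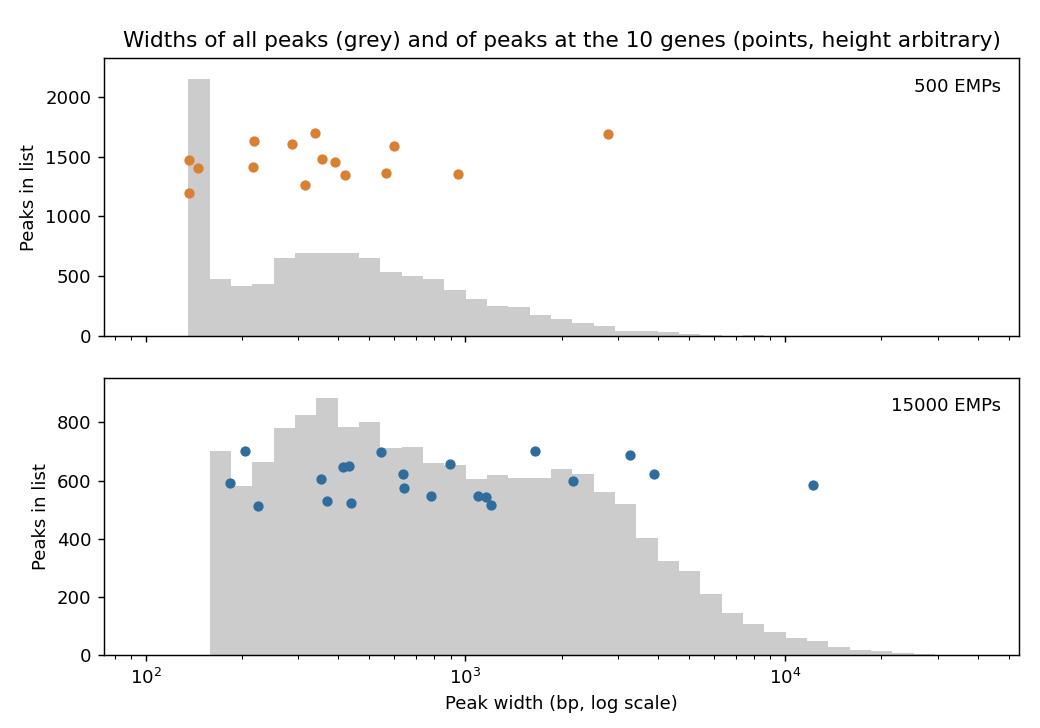
Widths of all peaks of each library (grey histogram, number of peaks against width in bp on a log scale) and of the peaks at the 10 genes (coloured points, whose height has no meaning). The points spread over the grey distribution, with medians of 339 bp and 643 bp, and 1 point at 12182 bp, the Dll1 domain, stands at the upper end with 15000 EMPs.

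The sequence around the starts was then described. It was not itself used to list the genes, but the list was made with earlier results of these data known. RefSeq promoter windows of 300 bases (250 before and 50 after the start) were present for 8 of the 10 genes, as 9 windows, with no entry for Hey1 and Heyl. Their median GC share was 63.7% against 52.7% over all 32851 windows. The median ratio of observed to expected CpG was 0.71 against 0.38, and it was 0.61 over the 2887 windows with a base under a 15000-EMP peak. Jag2 was the most CpG-rich, with 63 CpG and a ratio of 1.14, and Notch4 the poorest, with 5 CpG and a ratio of 0.21. Among these 8 genes the CpG ratios of marked and unmarked genes overlapped, although Notch4, the poorest, had no peak. The windows of Notch1 (0.66) and Notch3 (0.71), with no peak, lay between those of Dll4 (0.60) and Jag1 (0.96), and Hey2, at 0.75, held no peak in its window while being marked on both sides. Peaks at the 10 genes had a median CpG ratio of 0.41 with 500 EMPs and 0.38 with 15000 EMPs, against 0.28 for all peaks in each library.

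Motifs of factors that read the pathway were searched on both strands of the same windows, each counted on its own even where it overlaps another. TGGGAA, the core bound by Rbpj, was present in 1 of the 9 windows (11.1%) and in 25.6% of all windows. That window was Hey2, with 2 matches. CACNAG, an N-box read by Hes-type repressors, was in 4 of 9 windows (44.4%, all windows 42.5%), at Dll1, Dll4, Notch1 and Notch3. CACGTG, an E-box, was in 0 of 9 (all windows 7.15%). These matches describe letters in short windows and do not locate binding.

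The rest of the pathway was counted by role. Of 44 other Notch pathway genes, 12 (27.3%) had a peak within 3 kb of the TSS with 500 EMPs and 15 (34.1%) with 15000 EMPs, against 9.94% and 17.0% of all genes. In the group of 4 further ligands or ligand-like genes and the receptor Notch2, Dlk1, Dlk2, Dner and Dll3 had a peak in both libraries. Notch2, named after its values were seen, had none, flanks of 10 kb included. Of 7 Hes and feedback genes, Hes1, Hes2, Hes3 and Hes5 had a peak in both libraries. Hes5, the classical neural Notch target, was covered over 2783 bp with 500 EMPs and 5809 bp with 15000 EMPs, and Hes1, a target in most tissues, over 1055 bp and 2839 bp. The nuclear complex had Rbpjl, the pancreatic relative of Rbpj, with 2518 bp and 6001 bp, and Rbpj itself with 0 bp and 947 bp. None of the 9 genes for the proteases that cut the receptor had a peak within 3 kb of the TSS in either library. With 15000 EMPs, Ncstn, Aph1a, Aph1b and Aph1c, parts of gamma-secretase, had peaks further off within 10 kb of the gene, as had Aph1c with 500 EMPs. Among 5 glycosyltransferase genes only Lfng had one, of 1703 bp in total, with 15000 EMPs alone. Of 12 genes for ubiquitin ligases and endocytosis, Neurl1a, Neurl1b and Dtx1 had a peak in both libraries, and Dtx4 with 15000 EMPs alone. The length at Neurl1b was 428 bp with 500 EMPs and 4592 bp with 15000 EMPs.

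**Figure D4:**
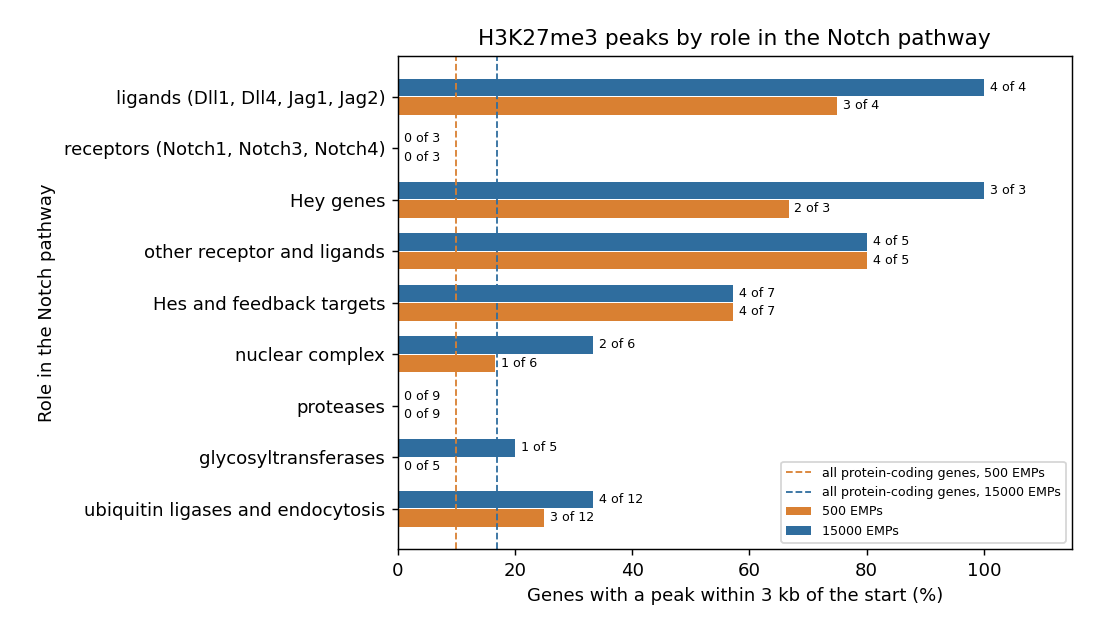
Share of genes in each role of the Notch pathway with a peak within 3 kb of the TSS, in percent, with bars for 500 and 15000 EMPs and the number of genes beside each bar. Dashed lines show the share of all protein-coding genes, 9.94% and 17.0%. Receptors and proteases show no bar, whereas all 4 ligands and all 3 Hey genes are marked with 15000 EMPs.

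The cell type label was set beside marker genes, for which a peak is a repressive mark and not expression. Over all genes the share with a peak within 3 kb of the TSS was 9.94% with 500 EMPs and 17.0% with 15000 EMPs, and lists this short can fall to either side of it. None of 12 EMP and blood progenitor genes and none of 6 macrophage genes had such a peak in either library. Of 12 endothelial genes, Sox17 and Cldn5 had a peak in both libraries and Sox18, Nrp1, Kdr and Nos3 with 15000 EMPs alone. Of the visceral endoderm genes, Foxa2 and Amn had one in both, whereas Afp, Ttr, Apoa1, Hnf4a and Cubn had none in either. Of 6 mesothelial genes, Wt1 and Tbx18 had one in both and Krt19 and Podxl with 15000 EMPs alone. Of 6 primitive erythroid genes, Hba-x had one in both and Epor with 15000 EMPs alone. How much other sorted cells added to the peaks at the Notch pathway genes was not tested.

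The authors' own annotation was also read. Within 3 kb in their distance column, 5 of 10 genes were named with 500 EMPs (9.74% of all genes) and 7 of 10 with 15000 EMPs (16.7%), the same genes in each library as by distance to the GENCODE TSS. The table for 500 EMPs held 15 rows for 7 of the 10 genes, of which 7 were inside a gene, 7 upstream and 1 across a start. The table for 15000 EMPs held 20 rows for 8 genes, of which 11 were inside, 5 upstream and 4 across a start. Of these 20, 1 row lay outside the 10-kb window, a peak of 1338 bp that was assigned to Hey1 from 50118 bp upstream.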

How the data were processed

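H3K27me3 CUT&RUN of yolk sac EMPs was analysed from peak files, 1 library per cell number, grouped by the labels. Per the labels and the study's methods, the authors aligned reads to mm10 (GRCm38) using Bowtie2 (version 2.2.1). Broad peaks were called by MACS2 (version 2.1.2) against IgG and annotated by ChIPpeakAnno. Broad calling joins nearby enriched stretches, so peak number and width depend on it. In the authors' command listing the 2 thresholds stand beside each other's input files, and the labels of the deposited lists were followed. The deposited positions carry no read counts.

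Peaks were intersected (at least 1 bp, 1-based coordinates) with GENCODE vM21 genes in Python version 3.11.15, with the 5′ end of the gene as TSS and 21911 protein-coding genes of unique symbol as background. Promoter windows are from RefSeq on GRCm38.p6, past whose chromosome ends 0 peaks ran. Interval functions were tested on simulated data. The rest of the visceral endoderm marker list is not reported here. Members and gene lists were chosen with earlier results of these data known. All members are named, as are listed pathway and marker genes with a peak within 3 kb of the TSS. Distance limits, joining of peaks, overlap, width and TSS definition were varied.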

Additional observations from a re-analysis of the deposited data

How the results depend on the processing

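In all, 16 values were recomputed under 68 alternatives, of which 47 kept within 1.5 times the reported count or length, or inside the interval of the reported share, and 21 did not. Peak width mattered most with 500 EMPs. Without peaks under 500 bp, 3 genes had a peak in the gene or within 10 kb (all genes, 7.98%), 3 had one within 3 kb of the TSS (all genes, 5.33%) and 0 across it (all genes, 0.895%). Under this setting 4 peaks were left in the windows (13 with 15000 EMPs), the median covered share of the 3-kb window was 0% against 1.82%, and 7 of the 44 other pathway genes had a peak within 3 kb. A limit of 1 kb left 3 genes by the TSS (all genes, 7.40%) and 3 by the authors' table with 500 EMPs, and a median of 0%. Joining peaks within 1 kb or 3 kb gave 9 and 8 peaks with 500 EMPs and 13 and 9 with 15000 EMPs, 2 genes with a covered TSS with 500 EMPs under either (all genes, 2.37% and 4.81%), and, within 3 kb, a median covered share of 46.1% and an overlap of 77.8% against 33.3% with 15000 EMPs. With at least 50% of both peaks shared, 0% of peaks overlapped in either direction, and with 50% of the query peak 0% of the 15000-EMP peaks did. The limits and overlap rules change only the criterion, and the width and joining settings change the peaks themselves. A limit of 20 kb left 7 genes with 500 EMPs and 8 with 15000 EMPs, without Notch1 and Notch4. No paired analysis was possible because each group had 1 library and the result comes from no test. Leaving out a library was not possible for the same reason. The peak files used here hold no read counts, so a gene without a peak, as Jag2 with 500 EMPs, is not shown to lack the mark.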
